A study of Acorus calamus with 8 samples.

Results

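Rhizome of sweet flag (Acorus calamus) was compared between a month and 4 days after cutting. The 4 rhizome libraries among the 8 of the series form 2 matched pairs, an uncut pair from explants whose leaves were left at full height and a cut pair from explants whose leaves had been cut back. Every explant, cut or uncut, was grown on Murashige and Skoog medium with the auxins 2,4-D at 2 mg/l and NAA at 0.5 mg/l, a culture set up for rhizome extension. The time of uncut explants is counted from the same cutting, and each combination of tissue, cutting and time has 1 library. The other 4 libraries are leaf from the same explant types and times. They enter here through the shared choice of features tested, the shared scaling and the shared estimate of spread. Leaf values are otherwise given only beside the green markers and in a comparison at the end. Of 24601 assembled features that are not ribosomal RNA, 3372 held at least 50 counts in a rhizome library, and 1772 of these (52.6%) moved in the same direction in both pairs, 998 upward (29.6%) and 774 downward (23.0%). This balance depended on the scaling: by library totals alone, 842 of 1681 like-moving features went upward.

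A rhizome is a stem that grows horizontally and stores reserves. Its extension depends on cells that loosen their walls as they enlarge: expansins weaken the bonds between wall polymers, pectate lyases cut pectin, and extensins and glycine-rich proteins build the protein network of the wall. Tissues short of water, cooled or ageing raise another set of genes in many plants, among them dehydrins, which protect proteins and membranes as cells dry, the DREB or CBF factors that switch dehydrins on, and galactinol synthase, the first enzyme towards the protective raffinose sugars. These roles come mostly from Arabidopsis and rice, and the names of the features are those of their best matches.

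Ribosomal RNA took 89.4% to 97.9% of the counts in rhizome. Without it, uncut rhizome at 4 days kept 146449 counts and 208 features of at least 50 counts, against 555487 to 1077693 counts and 1130 to 2795 such features in the other rhizome libraries. A single undescribed feature, Unigene19161, held 35.2% of these counts in uncut rhizome at 4 days and 21.9% to 34.4% in the others. Apart from it, uncut rhizome at 4 days kept 94827 counts. A count of 3 is worth 13.7 CPM (a read count scaled to a common library size) in that shallow library and 2.08 to 4.75 CPM in the others, so low features could not be seen there. Depth moved in opposite ways in the pairs: after scaling, the month library was 3.76 times as deep as the 4-day library in the uncut pair and 0.438 times as deep in the cut pair. All CPM below are counts without ribosomal RNA, scaled between libraries by the trimmed mean of M values (TMM).

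The change with time was mostly a rise. In edgeR's quasi-likelihood test, with uncut and cut as blocks, 277 of 11815 features tested were higher at a month (2.34%) and 26 were lower (0.220%) at an adjusted p under 0.05. Together these 303 calls are 2.56% of the features tested, and 1273 had an unadjusted p under 0.05. Of the calls, 300 moved alike in both pairs, and 231 of these (213 higher, 18 lower) also held at least 50 counts in a rhizome library. Among the higher calls, both month libraries lay above both 4-day libraries in 274, and among the lower calls both lay below in 25. The calls were made on these same values, so this order is no separate support for them. The same order without overlap was met by 811 of the 3372 features of at least 50 counts in the upward direction (24.1%) and by 532 in the downward direction (15.8%). Of the 811, 212 were called. In brackets after a feature, the fitted log2 fold change is followed by its SE and its adjusted p. The median fitted log2 fold change was 5.34 among higher calls and -5.46 among lower calls.

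**Figure D1:**
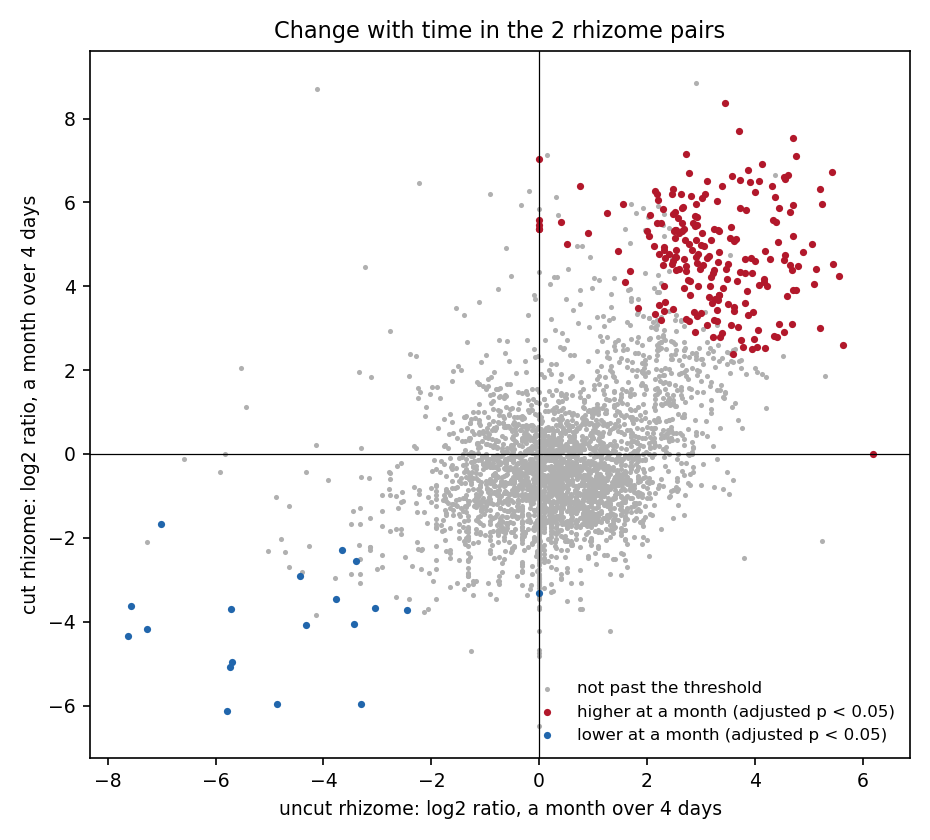
Log2 ratio of a month over 4 days in uncut rhizome (horizontal axis) and in cut rhizome (vertical axis) for the 3372 features with at least 50 counts in a rhizome library, the lower library counted as at least 3 counts. Called features (red higher, blue lower) lie in the upper right and lower left, and points along an axis line had no ratio above what the floor of 3 counts allows in that pair.

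Read pair by pair with no p-value, 357 features (10.6% of 3372) changed at least 4-fold in the same direction in both pairs, 308 upward (9.13%) and 49 downward (1.45%). Opposite changes of at least 4-fold in each pair were seen in 10 features (0.297%). Of the 303 calls, 215 met this size rule. The exceptions to like movement were CL1480.Contig1, a potassium channel with 68 counts in cut rhizome at 4 days and 0 in the other rhizome libraries, CL2115.Contig1, a low-temperature-induced 65 kDa protein with 54 counts in cut rhizome at a month alone, and the undescribed CL2369.Contig2, with 0 counts in the cut pair. With 1 pair left out the calls thinned: 164 of the 303 passed without the uncut pair and 41 without the cut pair, where the fit rests on the shallow 4-day library. No combination was replicated, so the tests speak only of how these particular libraries scatter, and in such bulk samples fewer cells of a type and less RNA per cell cannot be told apart.

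The 12 falls named here were ranked by fitted log2 fold change after like-named features had been merged, and each name is shown by its feature with the most counts. They were taken from calls that moved alike in both pairs, so the same direction in each pair was required of them. Beta-glucosidase 12 ranks in this way through CL1790.Contig2 (log2 -3.73) and is shown by CL1790.Contig3. A glycine-rich structural wall protein (Unigene5731) had 270 CPM in uncut and 332 in cut rhizome at 4 days, and 4.87 and 3.16 at a month. Both 4-day values were far above both month values, and it fell by 6.17 ± 0.98 on the log2 scale (SE, adjusted p = 0.00239).

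The expansins, which let the wall creep, gave the same order. Expansin-A8 (CL715.Contig3) went from 178 to 6.09 CPM in uncut and from 394 to 6.33 in cut rhizome, a fall by 5.39 ± 1.01 on the log2 scale (adjusted p = 0.00482). Expansin-A10 (Unigene7395) dropped from 453 to 8.52 CPM in uncut and from 161 to 3.16 in cut rhizome (log2 -5.68 ± 1.08, 0.00631). A neighbouring contig of the first, CL715.Contig2, also fell (-5.29 ± 1.09), but contigs of a cluster share reads and are not independent.

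Pectin and protein components of the wall followed. Pectate lyase 5 (Unigene8561), which cuts pectin chains, had 965 and 255 CPM at 4 days in uncut and cut rhizome and 4.87 and 12.7 at a month (-5.88 ± 1.04, adjusted p = 0.00431). A second feature with that name, Unigene9873, held 34 and 19 counts at 4 days and 0 at a month, which is at least 15.4-fold lower against a floor of 3 counts over the month libraries (adjusted p = 0.0111). An extensin-domain feature (Unigene9808) went from 947 to 6.09 CPM in uncut rhizome and from 85.8 to 4.75 in cut rhizome (-5.91 ± 1.06, 0.00431). The leucine-rich repeat extensin LRX3 (Unigene4338), which ties wall state to the cell surface in Arabidopsis, showed 471 and 15.2 CPM at 4 days against 3.65 and 0 at a month (-6.99 ± 1.22, 0.00343). In both these extensins the uncut 4-day library stood well above the cut one, and the month libraries lay lowest. Another feature of the LRX kind went the other way. LRX5 (Unigene3514) was called higher, from 36.6 to 517 CPM in uncut and from 24.9 to 498 in cut rhizome (4.09 ± 0.83, 0.00769).

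Most of the other named falls belong, by their names, to families of the cell surface or to enzymes that split off sugars. A BURP-domain protein of the RD22 kind (CL740.Contig2), a secreted protein type, went from 691 to 3.65 CPM in uncut and from 992 to 80.7 in cut rhizome (-5.28 ± 0.99, adjusted p = 0.00523). The non-specific lipid-transfer protein CL80.Contig2, of a family that carries lipids to the cell surface, went from 252 to 25.6 CPM in uncut and from 693 to 11.1 in cut rhizome (-4.56 ± 0.94, 0.00962). Both features were lower at a month than at 4 days in each pair, as was required of the named falls. Beta-galactosidase 8 (Unigene2519), which trims galactose from wall chains, had 146 and 81.0 CPM at 4 days and 7.30 and 4.75 at a month (-4.20 ± 0.96, 0.0181). Beta-glucosidase 12 (CL1790.Contig3) went from 110 to 13.4 CPM in uncut and from 243 to 19.0 in cut rhizome (-3.36 ± 0.82, 0.0260), and beta-glucosidase 22 (Unigene8122) from 105 to 4.87 and from 47.1 to 6.33 (-3.65 ± 0.93, 0.0351). The last of the 12 is a GOS9-like protein (Unigene11046), named after a root gene of rice, with 192 and 61.6 CPM at 4 days and 0 and 4.75 at a month (-5.64 ± 1.32, 0.0261).

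All 12 of these features moved downward in either pair alone, which their choice required, and the calls rested on both pairs. Without the uncut pair the glycine-rich protein (adjusted p = 0.0202), expansin-A8 (0.0359) and the lipid-transfer protein (0.0116) stayed past the threshold, and the other 9 did not, with values up to 0.491. Without the cut pair LRX3, the extensin-domain feature, pectate lyase 5, the GOS9-like protein and the BURP protein stayed past it, each at 0.0288. The fitted log2 values ran from -7.47 to -2.80 without the uncut pair and from -10.98 to -3 without the cut pair.

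**Figure D2:**
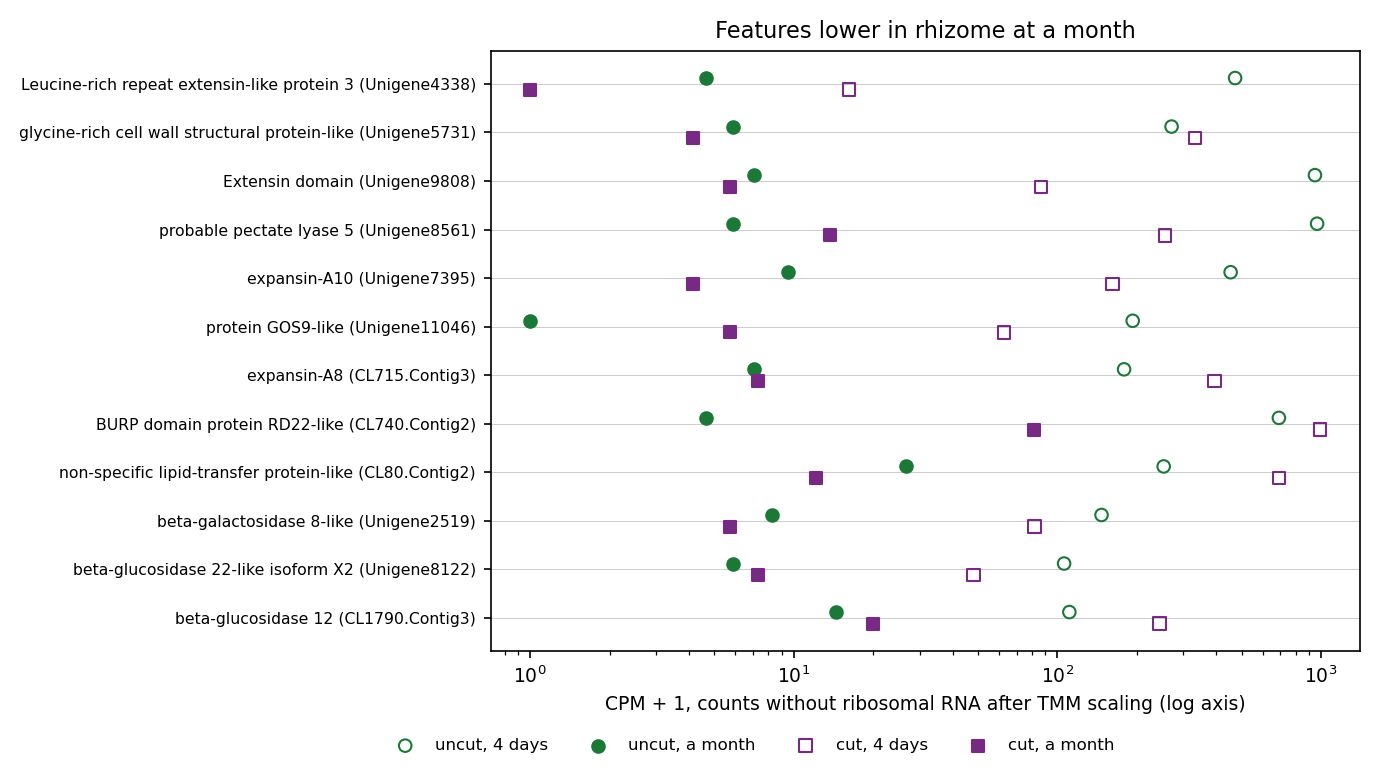
CPM + 1 on a log axis in the 4 rhizome libraries for the 12 falls named by fitted log2 fold change, circles for uncut and squares for cut rhizome, open at 4 days and filled at a month. Every filled symbol lies to the left of both open symbols of its row; the cut 4-day value of LRX3 (15.2 CPM) is the lowest open symbol.

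The 12 rises ranked and merged in the same way had at most 1 count at 4 days. Fitted values of features at 0 depend on the prior count, so the ranking favours them and does not order the sizes of change. HIPP22 (Unigene7247), a metal-binding protein with 3 counts at 4 days that is not among the 12, had a pooled ratio of 186 (63.3 to 906). Of the 12, 10 had 0 counts in both 4-day libraries, so their fold changes are lower bounds against a floor of 3 counts over the 4-day libraries. Such bounds and ratios, here and below, pool the 2 pairs. After scaling, the cut 4-day library was 6.61 times as deep as the uncut one. With a floor of 3 counts in each pair alone, the log2 bounds of the 10 ran from 2.18 to 4.61 in uncut rhizome. In cut rhizome they ran from 4.65 to 7.15. The factor DREB1G (Unigene1271), of the family that switches on genes of cold and drought, had 0 CPM in both 4-day libraries and 91.3 in uncut and 296 in cut rhizome at a month, at least 99.9-fold higher (adjusted p = 0.00239). A CBF-like factor of the same family, Unigene1270, had 86.4 and 122 CPM at a month, at least 56.4-fold higher (0.00315). The factor bHLH35 (Unigene10886), of the basic helix-loop-helix family, stood at 335 CPM in uncut and 209 in cut rhizome at a month, at least 155-fold higher (0.00158). These 3 regulators shared a pattern of no counts at 4 days and clear counts in both month libraries.

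Galactinol synthase 2 (Unigene10239) had 0 and 0.692 CPM at 4 days, the latter being 1 count, and 149 and 693 CPM at a month, a pooled ratio of 641 with a 95% counting interval of 115 to 25353 (adjusted p = 0.00158). CML38, a calcium sensor, ranks through Unigene7378, at 0 counts at 4 days and at least 37.0-fold higher, and is shown by Unigene9701, which likewise went from 0 and 1 count to 60.9 and 160 CPM, a ratio of 173 (30.5 to 6869; 0.00315). Intervals like these cover counting error only. RIN4 (CL1206.Contig2), which immune receptors guard at the plasma membrane in Arabidopsis, had 301 and 120 CPM at a month, at least 123-fold higher (0.00239).

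Some wall proteins rose while those above fell. Arabinogalactan protein 9 (CL2290.Contig1), a sugar-coated protein of the cell surface, had 183 and 193 CPM at a month, at least 104-fold higher (adjusted p = 0.00239). Arabinogalactan protein 1 (CL2095.Contig1) had 62.1 and 152 CPM at a month, at least 56.1-fold higher (0.00239), and a feature matched to the algal wall protein gp1 (CL766.Contig1) had 134 and 136, at least 74.8-fold higher (0.00309). Each of these was at 0 in both 4-day libraries. The receptor-like kinase PERK14 (Unigene4057), with a proline-rich part outside the cell, had 79.1 and 60.1 CPM at a month, at least 39.3-fold higher (0.00713). Caffeoylshikimate esterase (CL1664.Contig2), an enzyme on the route to lignin, had 267 and 52.2 CPM, at least 96.1-fold higher (0.00315), and an HVA22-domain protein (CL1579.Contig4), of a family induced by abscisic acid in barley, had 77.9 and 83.8, at least 44.6-fold higher (0.00487).

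All 12 rises were also called without the uncut pair, at adjusted p from 0.00548 to 0.0149. Without the cut pair bHLH35, RIN4 and caffeoylshikimate esterase passed, and the values of the 12 ran from 0.0288 to 0.129. Across all 277 higher calls, 173 had 0 counts in uncut rhizome at 4 days and 59 had 0 in both 4-day libraries.

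**Figure D3:**
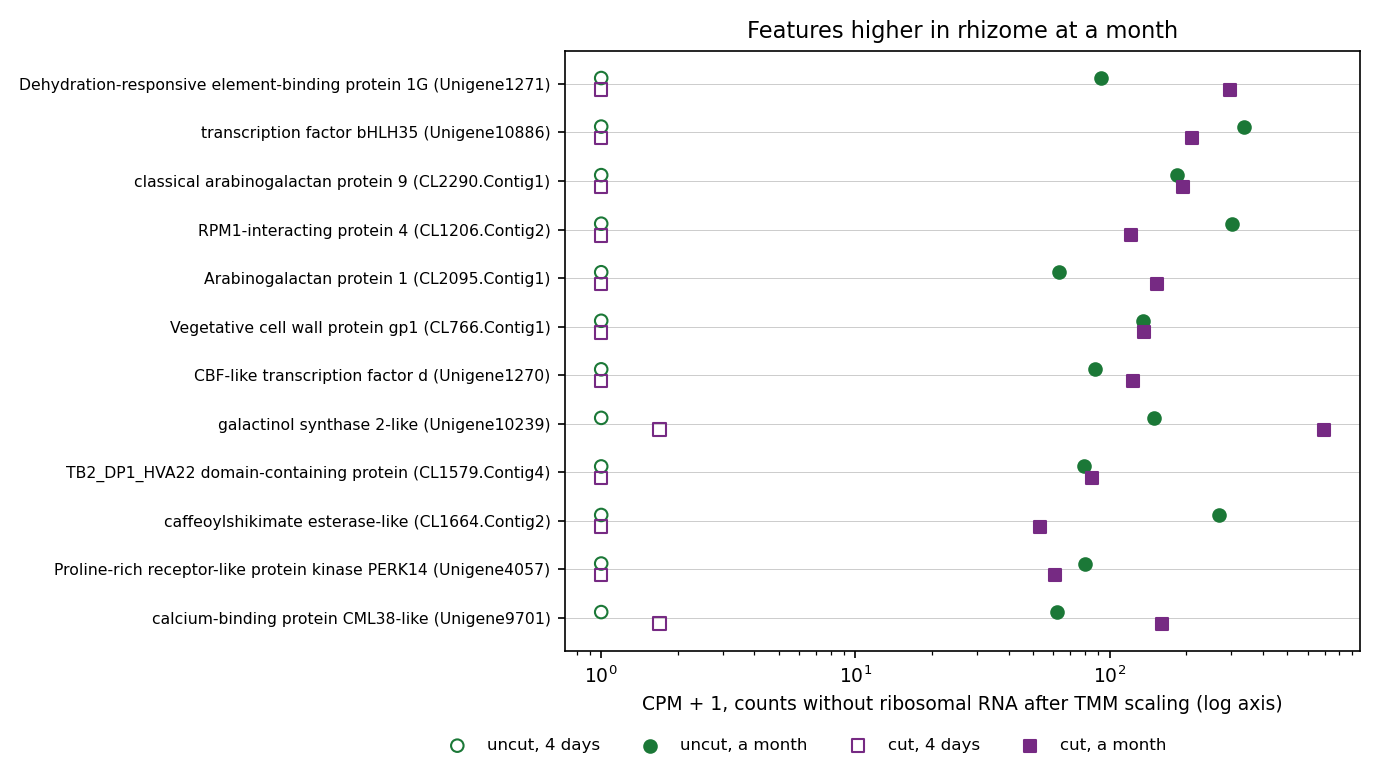
CPM + 1 on a log axis in the 4 rhizome libraries for the 12 rises named by fitted log2 fold change, circles for uncut and squares for cut rhizome, open at 4 days and filled at a month. Open symbols sit at 0 CPM, or at 0.692 CPM for galactinol synthase 2 and CML38, and the filled symbols lie between 52.2 and 693 CPM.

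Dehydrins and their relatives, the late embryogenesis abundant (LEA) proteins, gave 5 rises and no fall among 13 members tested, or 38.5% against 2.34% of all features tested. By edgeR at an unadjusted p under 0.05, 10 were higher and 0 lower, and DESeq2 called 6 higher and 0 lower. Dehydrin ERD14 (Unigene1416) went from 18.3 to 460 CPM in uncut and from 15.2 to 824 in cut rhizome (log2 5.28 ± 0.86, adjusted p = 0.00245). Dehydrin COR410 (Unigene4074), named after a cold-regulated wheat protein, went from 0 to 273 and from 2.77 to 234 CPM (6.83 ± 1.18, 0.00350). A LEA protein 2 (CL837.Contig4) rose from 4.58 to 63.3 and from 0.692 to 138 CPM, 1 count at 4 days in each library (pooled ratio 79.5, 21.6 to 663; 0.00674). The month values of all 3 lay far above the 4-day values in both pairs. The list's median log2 fold change was 6.32, or 3.07 with features at 0 in a whole group set to their bound, against 0.13 over all features tested. Without the uncut pair 6 members were called, and without the cut pair 0. A neighbouring contig of LEA protein 2, CL837.Contig2, was also called higher. Contigs of a cluster share reads, so such calls are not independent.

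ERF and DREB factors, a large family of regulators of ethylene, cold and drought responses, held the most calls of any list: 17 of 47 tested were higher (36.2%) and none lower. At an unadjusted p under 0.05 by edgeR the counts were 25 and 0, and DESeq2 called 16 and 0. RAP2-4 (Unigene3508), which acts in light and ethylene responses in Arabidopsis, went from 9.15 to 295 CPM in uncut and from 10.4 to 343 in cut rhizome (5.02 ± 0.94, adjusted p = 0.00487). Another feature of that name, CL1268.Contig2, went from 0 to 323 and from 9 to 240 CPM (5.57 ± 1.01, 0.00416). ERF054 (Unigene7179) had 0 and 1 count at 4 days and 77.9 and 53.8 CPM at a month (ratio 112, 19.7 to 4474; 0.00431). Summed over the list, the level rose from 1139 to 4581 CPM in uncut and from 1158 to 4610 in cut rhizome, close to each other at both times. The list's median was 3.22, or 2.67 with bounds. Without the uncut pair 11 members were called and without the cut pair 1. CL1268.Contig4 (RAP2-13) was also called higher, as were CL32.Contig1 and CL32.Contig2 (ERF027), and contigs of a cluster share reads. The ethylene list gave 16 higher of 60 tested (26.7%) and none lower, by edgeR at an unadjusted p under 0.05 25 and 0 and by DESeq2 16 and 0, but 15 of its 16 calls are members of the ERF and DREB list. Without the uncut pair 9 of its members were called and without the cut pair 1.

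Among the other families of regulators, each list had a few rises and no called fall. WRKY factors, which act in defence and ageing, gave 3 higher of 27 tested (11.1% against 2.34% of all features tested). WRKY40 (CL131.Contig1) had 0 CPM in both 4-day libraries and 47.5 in both month libraries, at least 26.3-fold higher (adjusted p = 0.00708). WRKY53 (Unigene4764), a regulator of leaf ageing in Arabidopsis, went from 4.58 to 103 CPM in uncut and from 2.77 to 94.9 in cut rhizome (4.86 ± 1.01, 0.00962), and WRKY33 (Unigene1253) from 0 to 162 and from 13.8 to 117 (4.08 ± 0.97, 0.0233). NAC factors, which act in stress and ageing, gave 3 higher of 28 (10.7%). NAC68 (CL905.Contig4) rose from 0 to 594 CPM in uncut and from 18.7 to 430 in cut rhizome (5.67 ± 1, 0.00375). NAC2 was called as 2 contigs of a cluster that share reads, of which CL426.Contig1 had 0 counts at 4 days and 129 and 41.1 CPM at a month, at least 50.3-fold higher (0.00462). MYB and bHLH factors gave 3 higher of 85: bHLH35 above, its second feature Unigene5541 (0 and 1 count at 4 days, 183 and 122 CPM at a month; ratio 260, 46.2 to 10304; 0.00291) and MYB78 (Unigene2631; 0 and 1 count against 26.8 and 44.3 CPM; ratio 57.2, 9.81 to 2304; 0.0339). In the last family the share of 3.53% was near the 2.34% of all features. DESeq2 called a NAC factor lower, and 3 WRKY, 4 NAC and 3 MYB or bHLH features higher.

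Hormone lists other than ethylene had at most 2 calls each. In the abscisic acid list 2 of 18 tested were higher (11.1% against 2.34% of all features tested), with 8 higher and 0 lower by edgeR at an unadjusted p under 0.05: a C2-domain ABA-related protein 4 (Unigene9201), which helps bring abscisic acid receptors to membranes in Arabidopsis, went from 4.58 to 76.7 and from 6.23 to 68.0 CPM (3.62 ± 0.96, adjusted p = 0.0464), and an ABI5-like factor (Unigene5000), a regulator of abscisic acid response, from 4.58 to 48.7 and from 9 to 101 (3.45 ± 0.92, 0.0477). In both, the month values exceeded the 4-day values in each pair, close to the threshold of the test. In the jasmonate list 2 of 23 were higher (8.70%, with 6 higher and 0 lower at an unadjusted p under 0.05), and both are enzymes of its synthesis. Lipoxygenase 3-1 (Unigene8396) had 0 counts at 4 days and 77.9 and 53.8 CPM at a month, at least 37.4-fold higher (0.00708), and 12-oxophytodienoate reductase 7 (Unigene1708) had 0 and 1 count against 58.4 and 63.3 CPM (ratio 101, 17.6 to 4022; 0.0148). In the gibberellin list 2 of 14 were higher (14.3%, with 6 higher and 0 lower at an unadjusted p under 0.05). Gibberellin 2-beta-dioxygenase 8 (Unigene6338), which inactivates gibberellins, had 0 counts at 4 days and 13.4 and 33.2 CPM at a month, at least 12.2-fold higher (0.0380), and a gibberellin-responsive factor (Unigene4644) went from 13.7 to 298 and from 28.4 to 245 CPM (3.65 ± 0.87, 0.0228). In uncut rhizome the dioxygenase's 13.4 CPM lay below the 13.7 CPM of 3 counts at 4 days, so only the cut pair shows its rise.

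The auxin list gave no rise and 1 fall of 53 tested (1.89% against 0.220%). The medium held 2 auxins at both times. IAA30 (CL718.Contig1), a repressor of auxin response, went from 398 to 29.2 CPM in uncut and from 121 to 11.1 in cut rhizome (-3.61 ± 0.84, adjusted p = 0.0199). By edgeR 8 members were lower and 2 higher at an unadjusted p under 0.05, and DESeq2 called 2 lower and 0 higher. No cytokinin member of 17 was called. Cytokinin dehydrogenase 5 (Unigene6200), which breaks cytokinin down, had 293 and 274 CPM at 4 days and 57.2 and 42.7 at a month, and the response regulator ARR9 (CL2354.Contig2) had 192 and 50.5 against 17.0 and 15.8. The 4-day values of both exceeded the month values without passing the test (adjusted p = 0.279 and 0.173).

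In the starch breakdown list 2 of 13 were higher and none lower, or 15.4% against 2.34% of all features tested. Beta-amylase 1 (CL2263.Contig1), which releases maltose from starch, went from 32.0 to 416 CPM in uncut and from 3.46 to 726 in cut rhizome (5.68 ± 1.14, adjusted p = 0.0104). The inactive beta-amylase 9 (CL1861.Contig1), a relative without catalytic activity in Arabidopsis, went from 4.58 to 92.5 and from 8.31 to 147 CPM (4.18 ± 0.92, 0.0129). No member of 21 in starch synthesis was called. Granule-bound starch synthase 1 (Unigene8022), which makes amylose, had 224 and 891 CPM at 4 days and 471 and 647 at a month, higher with time in uncut and lower in cut rhizome. Neutral invertase 1 (CL370.Contig3), which splits sucrose, was the single call of 23 sucrose and sugar transport features (4.35%) and went from 36.6 to 202 and from 6.23 to 144 CPM (3.50 ± 0.88, 0.0330). No call was made among the 25 tested features whose descriptions name a storage protein or lectin. A lectin (CL1454.Contig2) had 137 and 186 CPM at 4 days and 135 and 932 at a month, and jacalin-related lectin 3 (Unigene9321) had 2255 and 109 against 14.6 and 25.3.

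Within the list of expansins and xyloglucan enzymes the members went both ways by type: 4 of 37 rose and all are xyloglucan endotransglucosylases, which cut and rejoin xyloglucan chains, while the 3 that fell are the expansins above. The rises are 10.8% of the members tested and the falls 8.11%, against 2.34% and 0.220% of all features tested. Xyloglucan endotransglucosylase CL732.Contig2 had 0 and 1 count at 4 days and 206 and 185 CPM at a month (ratio 327, 58.3 to 12970; adjusted p = 0.00239). The other 2 contigs of that cluster that were called share reads with it, so the 4 rises come from a single cluster and Unigene774. In the pectin list the pectate lyases above fell, and pectinesterase inhibitor 10 (Unigene4697), which restrains an enzyme that modifies pectin, went from 0 to 106 and from 2.08 to 33.2 CPM, 3 counts at 4 days in all (ratio 41.2, 13.7 to 203; 0.0254). Of 37 pectin members tested, 2.70% rose and 5.41% fell. The lignin list gave 2 rises of 45 (4.44%), the caffeoylshikimate esterase above and Unigene66 of the same name (0 and 1 count against 58.4 and 36.4 CPM; ratio 81.2, 14.1 to 3253; 0.0129). Of 20 peroxidases, peroxidase 12 (CL2375.Contig3) fell from 458 to 36.5 and from 392 to 80.7 CPM (-2.95 ± 0.79, 0.0490), and none rose. The lipid-transfer, cutin and wax list had 2 rises (3.70%) and 1 fall (1.85%) of 54. Its rises were a GDSL esterase (Unigene8529; 0 counts at 4 days, 37.7 and 44.3 CPM at a month, at least 22.5-fold higher, 0.0199) and a lipid-transfer protein (Unigene299; 0 and 1 count against 3.65 and 57.0 CPM; ratio 44.6, 7.55 to 1807; 0.0496). The 3.65 CPM of Unigene299 lay below the 13.7 CPM of 3 counts in uncut rhizome at 4 days, so only the cut pair shows its rise.

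All 5 calls of the defence list (of 53 tested, 9.43% against 2.34% of all features tested) were beta-1,3-glucanases, enzymes that cut callose and fungal walls, and all rose. CL1668.Contig2 went from 4.58 to 522 CPM in uncut and from 7.61 to 470 in cut rhizome (6.21 ± 0.95, adjusted p = 0.00239), and Unigene6867 from 13.7 to 469 and from 15.9 to 266 (4.48 ± 0.83, 0.00462). CL1668.Contig1, also called, is of the same cluster as CL1668.Contig2 and shares reads with it. No chitinase, thaumatin or other member of the list was called by edgeR, while DESeq2 called 6 members higher and at an unadjusted p under 0.05 edgeR had 12 higher and 3 lower. The heat shock list gave 3 rises of 111, or 2.70%, near the background. They are DnaJ 8 (CL2579.Contig1; 4.58 to 105 and 4.15 to 98.1 CPM; 4.52 ± 1.02, 0.0157), a heat shock factor (CL1158.Contig1; 0 counts at 4 days, 13.4 and 42.7 CPM at a month, at least 14.5-fold higher, 0.0339) and HSC70-2 (Unigene9079; 22.9 to 167 and 13.8 to 146 CPM; 3.15 ± 0.82, 0.0392). The uncut month value of the heat shock factor was below the 13.7 CPM of 3 counts at 4 days, so only the cut pair shows its rise. The proteolysis and senescence list gave 4 rises of 267 (1.5%), a share below that of all features tested. Among them were a polyubiquitin (Unigene3494) that went from 0 to 178 and from 27.0 to 221 CPM (4.07 ± 0.96, 0.0228) and the senescence-associated protein SAG21 (Unigene1257), with 0 and 2 counts at 4 days and 53.6 and 36.4 CPM at a month (ratio 38.3, 10.2 to 323; 0.0321).

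In the cell cycle list both calls of 37 tested were inhibitors and rose, 5.41% against 2.34% of all features tested. SMR13 (CL2588.Contig2) and SMR4 (Unigene8366) belong to a plant family that holds back cyclin-dependent kinases. SMR13 went from 18.3 to 424 CPM in uncut and from 4.15 to 403 in cut rhizome (5.63 ± 0.96, adjusted p = 0.00313). SMR4 had 0 and 1 count at 4 days and 105 and 91.8 CPM at a month (ratio 165, 29.1 to 6553; 0.00373). Both were at similar levels in the 2 month libraries. No cyclin passed the test. None of 37 histone and replication features was called, and histone H3.3 (Unigene9137) had 668 and 397 CPM at 4 days and 694 and 532 at a month. None of 239 cytosolic ribosomal proteins was called either, with a list median of 0.14 under TMM and -0.02 under scaling by totals alone, and the 40S protein S2-4 (CL1006.Contig1) had 508 and 609 CPM at 4 days against 430 and 731 at a month.

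Over the 9 lists with no call by edgeR, which also take in aquaporins, fermentation, O-methyltransferases and terpene synthases, and retrotransposons, 416 features were tested, 11 were higher and 13 lower at an unadjusted p under 0.05, and DESeq2 called 0 higher and 3 lower. Alcohol dehydrogenase 3 (Unigene9121), which regenerates NAD in fermentation, was nearest with 375 and 72.0 CPM at 4 days and 19.5 and 15.8 at a month (adjusted p = 0.0505). Caffeic acid O-methyltransferase CL177.Contig5, of an enzyme family of phenylpropanoid synthesis, had 9.15 and 63.7 CPM at 4 days and 145 and 163 at a month without passing. The aquaporin PIP1-4 (CL496.Contig5), a water channel, had 741 and 480 CPM at 4 days and 315 and 384 at a month. Retrotransposon features summed to 119 and 303 CPM in uncut rhizome at 4 days and a month and to 4747 and 2433 in cut rhizome, higher in both cut libraries than in either uncut one.

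With the cut pair left out, members called higher were left in the ERF and DREB (1), ethylene (1), lignin (1), NAC (1), MYB and bHLH (2), defence (3) and proteolysis (1) lists and in no other list. With the uncut pair left out instead, the corresponding counts were 11, 9, 2, 1, 3, 4 and 3, and further lists kept rises, the dehydrin and LEA list (6) and the expansin and xyloglucan list (3) among them. Members called lower without the cut pair were in the pectin (2), gibberellin (1), peroxidase (1) and defence (1) lists. The expansin, pectin, lipid-transfer, fermentation and proteolysis lists had 1 each without the uncut pair.

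**Figure D4:**
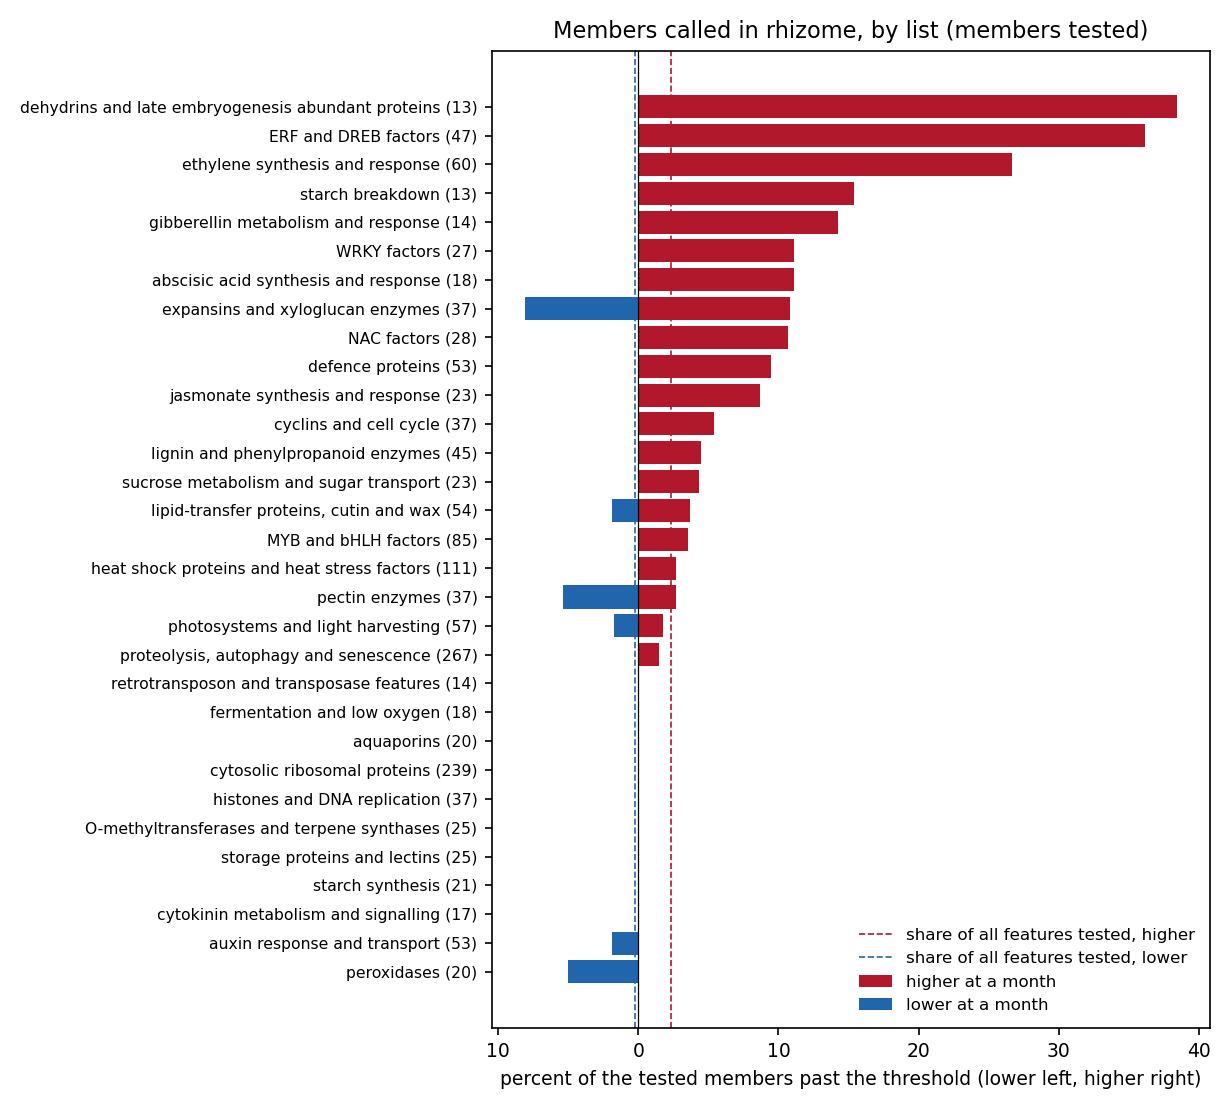
Percent of the tested members of each list that were called higher (red, to the right) or lower (blue, to the left) in rhizome at a month, with the number tested in brackets and dashed lines at the shares over all features tested, 2.34% and 0.220%. The longest bars belong to dehydrins and LEA proteins (38.5%) and to ERF and DREB factors (36.2%).

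Markers of other tissues were read for the whole lists. The 65 nuclear markers of green leaf tissue, photosystem, light-harvesting and Rubisco small subunit features, summed to 1244 and 1511 CPM in uncut and cut rhizome at 4 days and to 355 and 848 at a month, against 8052 to 38003 CPM in leaf. Of all 78 green markers, organelle ones included, 19 to 33 were at 0 in a rhizome library. Within them 1 of 57 tested was higher and 1 lower, 1.75% each against 2.34% and 0.220% of all features tested. By edgeR at an unadjusted p under 0.05, 1 was higher and 9 were lower, and DESeq2 called 1 higher and 1 lower. The list's median log2 fold change was -0.97 against 0.13 over all features tested. A Rubisco small chain (Unigene10191) had 22 and 4 counts at 4 days and 0 at a month, at least 7.57-fold lower (adjusted p = 0.0154), and the organelle feature psbH (Unigene1228), a photosystem II subunit, had 0 and 1 count against 40.2 and 49.0 CPM (ratio 73.2, 12.7 to 2937; 0.0159). Summed nuclear green markers moved downward with time in both pairs, beside the falls named above, and their part in those was not tested.

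Meristem, xylem and phloem markers gave no call among 10, 1 and 5 features tested, with 1 higher at an unadjusted p under 0.05, a meristem feature, and 0 by DESeq2. The 13 KNOX and WUSCHEL-type markers summed to 86.9 and 188 CPM at 4 days and 197 and 187 at a month, and 8 of them were at 0 in the shallow uncut 4-day library. KNOTTED1-like 2 (CL2425.Contig1), which keeps meristem cells undifferentiated, had 0 and 52.6 CPM at 4 days and 41.4 and 25.3 at a month. The secondary wall cellulose synthase subunit 8 (Unigene3676), the single xylem marker tested, had 54.9 and 204 CPM at 4 days and 113 and 104 at a month. Phloem markers summed to 0 and 30.5 CPM at 4 days and to 20.7 and 22.1 at a month, with all 7 at 0 in uncut rhizome at 4 days.

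Many of the features that changed in rhizome changed in leaf too. In leaf, 546 features (4.62%) were called over the same interval, and 196 features were called in both tissues, all in the same direction: 64.7% of the rhizome calls and 35.9% of the leaf calls. Of the 277 features higher in rhizome, 274 had a positive fitted change in leaf and 190 were called there. Of the 26 lower, 21 had a negative change in leaf and 6 were called. All 12 rises named first were called in leaf, as were 5 of the 5 dehydrin and LEA calls and 13 of the 17 ERF and DREB calls. Among the 12 falls named first 4 were called in leaf, the glycine-rich protein (-4.01 ± 0.86, adjusted p = 0.00999), pectate lyase 5 (-6.97 ± 1.44, 0.00962), expansin-A10 (-4.98 ± 1.17, 0.0187) and expansin-A8 (-4.77 ± 1.01, 0.00962). Beta-galactosidase 8, by contrast, had a leaf change of -0.31 ± 0.86 (0.946), and the difference between tissues was not past the threshold for it or for any other of the 303 rhizome calls.

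The difference itself was tested in the same fit. It passed for 5 features (0.0423% of those tested), none of them a rhizome call, and 402 had an unadjusted p under 0.05; among the 303 rhizome calls 43 did, and DESeq2 passed 0 of them. The described one is kiwellin (Unigene10807), a secreted cysteine-rich protein, with 0 and 11.1 CPM in rhizome at 4 days and 63.3 and 64.9 at a month, and with 28.1 and 10.8 CPM in leaf at 4 days and 0 at a month (rhizome minus leaf 11.21 ± 2.00 on the log2 scale, adjusted p = 0.0470). Its rhizome change was upward in both pairs without passing the test (0.143). Its leaf change was downward in both pairs (adjusted p = 0.00962).

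**Figure D5:**
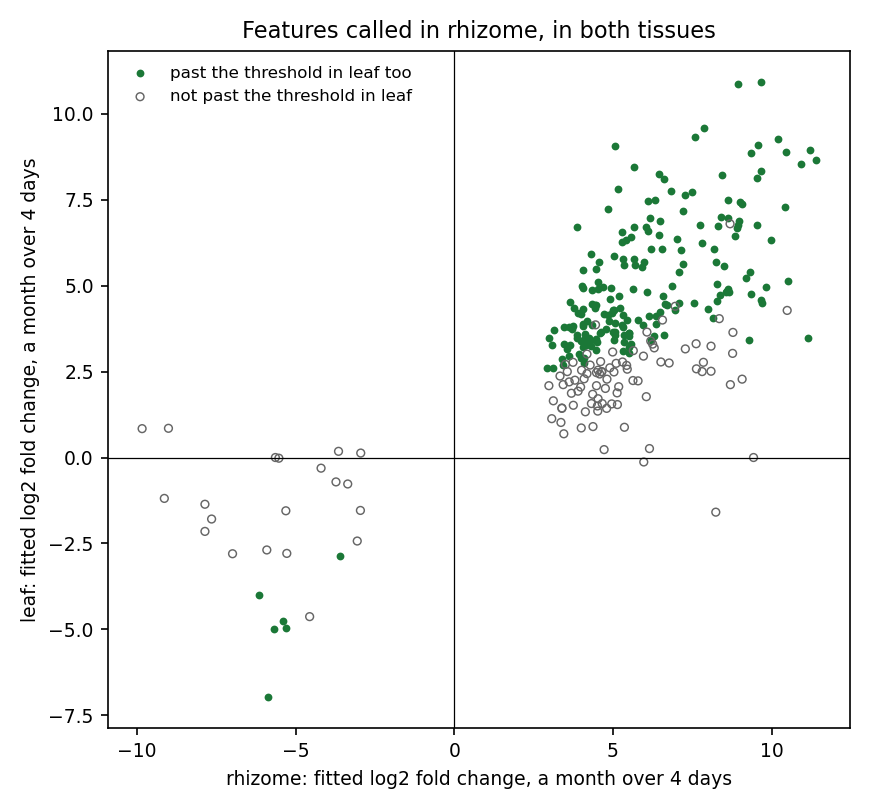
Fitted log2 fold change of a month over 4 days in rhizome (horizontal axis) and in leaf (vertical axis) for the 303 features called in rhizome, filled where leaf was called too. Of these, 295 have the same sign in both tissues; fitted values of features at 0 in a whole group depend on the prior count and are not sizes of change.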

How the data were processed

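Each deposited table lists an expected count and an FPKM value per assembled feature with its length and annotation, per the file headers. Bowtie2 and RSEM, with no versions, are named in the submitters' processing notes. Library preparation used either oligo dT selection or ribosomal depletion, per the labels' protocols, but which of these a given library had, and whether strand was kept, is not stated in the labels.

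Expected counts were rounded, features absent from a library's table were set to 0 there, and 35 features whose nucleotide match names ribosomal RNA were removed, which took 75.0% to 97.9% of the counts of the 8 libraries. The test was edgeR 4.0.16 in R 4.3.3 (filterByExpr, TMM, robust quasi-likelihood F test) on all 8 libraries, with 4 blocks of tissue and cutting and a time effect in each tissue, 6 coefficients and 2 residual degrees of freedom, and Benjamini-Hochberg adjustment over 11815 features at 0.05. Leaf therefore shares in the choice of features tested, the scaling and the estimate of spread. With the rhizome libraries alone, 6784 features were tested. SE is the log2 fold change over the square root of F. Alternatives were DESeq2 1.42.0, limma 3.58.1 on log2(FPKM + 1) and log2(FPKM + 0.1), other scalings and filters, the rhizome libraries alone and each pair left out. The fit was tested on simulated data.

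Named features are the 12 largest called changes each way (described, alike in both pairs, at least 50 counts in a rhizome library, like-named features merged and shown by the one with the most counts), up to 3 calls per list by p, else up to 2 levels. The comparison, the 31 lists and the 4 marker lists, all made from descriptions, were chosen with earlier results of these data known. The terms of 6 lists were corrected after descriptions and results had been seen, to take out false matches. Counting intervals are exact 95% intervals. Close paralogues and contigs of a cluster can share reads.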

Additional observations from a re-analysis of the deposited data

Results flagged for a closer look

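The change with time differed between rhizome and leaf for 5 features by edgeR's test of the difference. On the log2 scale the rhizome change exceeded that of leaf by 12.63 in CL108.Contig1 (adjusted p = 0.0305), 14.25 in CL108.Contig2 (0.0470), 10.04 in CL614.Contig1 (0.05 after rounding, under the threshold before it), 11.46 in CL614.Contig2 (0.0355) and 11.21 in kiwellin (Unigene10807, 0.0470). The first 4 carry no description and come from 2 clusters whose contigs share reads. All 5 had 0 counts in both leaf libraries at a month and from 16 to 341 counts in the leaf libraries at 4 days, so the sizes depend on the prior count. In CL108.Contig2, for example, rhizome held 0 and 110 CPM at 4 days in uncut and cut explants and 252 and 394 at a month, and leaf held 228 and 58.3 CPM at 4 days.

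Some well-counted features went opposite ways in uncut and cut rhizome, which was not tested, since each is a difference between single libraries. A glycine-rich wall protein (Unigene5971) changed by -2.76 on the log2 scale in uncut and by 2.93 in cut rhizome, with 535 to 79.1 CPM and 16.6 to 127 CPM. CL1562.Contig1, matched to an algal surface glycoprotein, changed by -2.29 and 2.34, from 636 to 130 and from 47.1 to 239 CPM. The organelle feature ycf68 (CL299.Contig3) changed by 5.24 and -2.08, from 45.8 to 1734 and from 23236 to 5494 CPM.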

How the results depend on the processing

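The count of 303 rhizome calls (277 higher, 26 lower) stayed within 1.5 times of itself under DESeq2 size factors (309), totals alone (294), no count filter (381), DESeq2 (417), no organelle features (364), no Unigene19161 (287) and the rhizome libraries alone (206). It was 192 (169 higher) by limma on log2(FPKM + 1) and 201 on log2(FPKM + 0.1). Leaving out a pair gave 54 to 206 calls, 40 to 195 of them higher and 11 to 14 lower, with fewer in total and fewer higher without the cut pair, which leaves the shallow 4-day library. There 74.1% of calls were higher against 91.4% with both pairs, and the median of all features moved by 0.78 (log2). The median moved by -0.15 under totals alone, by -0.22 on log2(FPKM + 1) and by -0.18 without the uncut pair. The lower calls numbered 42 with no count filter, 45 by DESeq2, 12 on log2(FPKM + 0.1) and 17 from the rhizome libraries alone. DESeq2 shared 283 of the 303 calls, and the rhizome libraries alone 200 of the 289 they tested. The 5 features that differed from leaf became 15 with no count filter, 2 without Unigene19161 and 8 to 18 with a pair left out. The 357 features past the size rule became 216 at a minimum of 100 counts and 715 at a 2-fold change. Of them 86.3% were upward under TMM, 84.0% under DESeq2 size factors and 84.1% under totals alone. Among all features moving alike, 998 of 1772 were upward under TMM. That was 949 of 1820 under DESeq2 size factors and 842 of 1681 under totals alone, so the balance among these shifted with the scaling. Of 69 named calls, none changed direction; 41 stayed past the threshold without the uncut pair, 15 without the cut pair, and 39 to 41 on FPKM. The cause of these shifts was not tested. Depth limits uncut rhizome at 4 days most: 1632 features reached 10 counts there, against 5645 to 8952 in the other rhizome libraries.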

Other observations

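Further groups of features stood out among the rises, and their terms were chosen after the values were seen, so the counts are a description, beside 2.34% higher and 0.220% lower of all features tested. Of 13 features of galactinol, raffinose and trehalose synthesis 6 rose and none fell, and their summed level went from 59.5 to 1293 CPM in uncut and from 170 to 1751 in cut rhizome. Raffinose synthase (galactinol-sucrose galactosyltransferase, Unigene9471) had 0 and 1.38 CPM at 4 days and 40.2 and 130 at a month, and a trehalose-phosphate phosphatase (CL458.Contig1) went from 0 to 644 and from 14.5 to 277 CPM. Of 95 calcium sensors and calcium-dependent kinases 11 rose and none fell, among them the kinase CPK26 (CL827.Contig1), from 32.0 to 597 and from 23.5 to 377 CPM. Without the cut pair 1 of the sugar group and 3 of the calcium group were called, and without the uncut pair 3 and 8.

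Heavy metal-associated isoprenylated proteins, small metal-binding proteins of plants, gave 6 rises of 19 and no fall, with 6 called higher without the uncut pair and 2 without the cut pair. HIPP22 (Unigene7247) went from 0 to 375 and from 2.08 to 285 CPM. Of 54 protein phosphatases 2C, a family with negative regulators of abscisic acid signalling, 5 rose. Of 59 features matched to formins 6 rose, and neither group had a fall. Whether these features encode whole formins was not tested. In each of these 2 groups 3 were called higher without the uncut pair, and 1 phosphatase and 2 formin matches without the cut pair. A feature of 828 bases matched to formin 20 (Unigene4782) had 0 and 2.77 CPM at 4 days and 219 and 210 at a month. Arabinogalactan, extensin and proline-rich wall proteins divided, with 16 rises and 4 falls among 171. These were 13 and 1 without the uncut pair, and without the cut pair 0 and 4. Beta-glucosidases and beta-galactosidases gave 4 falls of 15 and no rise, and no fall was called with either pair left out.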
